A study of Mus musculus with 6 samples.

Results

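The protein kinase C (PKC) genes Prkca, Prkcb, Prkcd, Prkce, Prkch, Prkcq, Prkcz and Prkci were followed in regulatory T cells (Treg cells) with and without BAF60b. These 8 genes, of 54232 in the deposited table, were found by symbol. They had been chosen from a view of the differences between KO and WT in CPM (read counts scaled by library size) in these same libraries, so the KO and WT values of the 8 genes are given as a description, with no p-value of their own. All 8 passed the filter on low counts that left 13602 genes. The series holds 6 RNA-seq libraries of GFP-positive Treg cells sorted from mouse spleen: WT 1 to 3 from wild-type mice, and KO 1 to 3 from mice with a conventional knockout of BAF60b, a SWI/SNF chromatin remodelling subunit encoded by Smarcd2. The age of the mice, the promoter that drives GFP, the exons the knockout removes and any pooling of mice are not stated in the labels, and in bulk RNA a smaller number of cells of a type cannot be told apart from less RNA per cell.

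PKC enzymes are serine and threonine kinases that carry signals from lipid second messengers. The classical isoforms (PKC alpha from Prkca, PKC beta from Prkcb) respond to calcium and diacylglycerol, the diacylglycerol-only isoforms (delta from Prkcd, epsilon from Prkce, eta from Prkch, theta from Prkcq) to diacylglycerol but not calcium, and the atypical isoforms (zeta from Prkcz, iota from Prkci) to neither, acting instead through protein partners such as the PAR6 and p62 scaffolds. In T cells the antigen receptor triggers phospholipase C gamma 1 to make diacylglycerol, and PKC theta then relays the signal to NF-kB. PKC theta is known as a brake on the suppressive function of Treg cells.

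Library totals ran from 18167053 to 22502804 reads. Smarcd2 had 204.4, 199.3 and 191.9 CPM in WT and 58.1, 57.5 and 59.0 CPM in KO, so the labels and the targeted gene were in accord in every library. Summed CPM of 8 Treg identity markers (Foxp3, Il2ra and others) was 5190.9 to 5329.3 in WT and 5305.6 to 5649.0 in KO. EdgeR called 1 of the 8, Ikzf2, which rose (665.2 ± 37.4 to 888.3 ± 60.4 CPM, edgeR adjusted p = 0.00527), and DESeq2 called 2. Foxp3 was also higher in KO without overlap (557.7 to 595.8 CPM). Trac (507.1 to 477.1 CPM) and Trbc2 (528.5 to 474.0 CPM) were lower without overlap, and edgeR called none of these. Of the B cell markers, Ms4a1 and Pax5 had at most 9 reads in any library, while Cd79a had 36 to 56, Cd22 42 to 164 and Cd79b 151 to 251. Myeloid markers summed to 78.8 to 89.4 CPM in WT and 70.1 to 134.8 CPM in KO, the highest value being that of KO 2, and platelet and erythroid markers to 3.10 to 5.04 and 2.21 to 14.9 CPM, again highest in KO 2. Transcripts of 4 Y-linked genes were at 0 in WT 1 and KO 2 and summed to between 143.8 and 448.0 CPM in the other libraries. Xist, which female cells express, was at 0 in KO 3 and at 88.6 to 453.0 CPM in the others, so WT 2, WT 3 and KO 1 held both kinds of transcript.

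The isoforms fall into pairs by coding sequence. In pairwise alignments of the longest coding sequences, identity was highest between Prkca and Prkcb (76.8% of aligned bases), followed by Prkcz and Prkci (69.8%), Prkce and Prkch (68.6%) and Prkcd and Prkcq (66.9%). Every other pair lay between 55.0% and 64.9%. No stretch of 50 bases was shared between transcripts of any 2 of the 8 genes, so reads of that length or longer can be assigned among them. Prkcz is the exception beyond the family. Prkcz2 (ENSMUSG00000108314, chromosome 7, 27882755 to 27884510, minus strand, mm10), a single-exon copy on another chromosome, aligned with 98.8% of the Prkcz coding sequence at 98.7% identity. The longest identical run was 302 bases, from base 1123 to 1424 of the 1776 coding bases, in the part that encodes the kinase. Its first 120 bases, read from GENCODE M21 transcripts, are shown because they occur letter for letter in both genes.

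Prkcz and Prkcz2: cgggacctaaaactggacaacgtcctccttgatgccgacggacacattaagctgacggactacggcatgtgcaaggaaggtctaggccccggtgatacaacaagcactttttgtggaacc

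The labels do not say how reads that match both places were counted, so the counts of Prkcz are uncertain. Prkcz2 itself had 7.73, 9.17 and 9.48 CPM in WT and 9.75, 10.4 and 9.95 CPM in KO (log2 ratio, the fitted log2 fold change of KO over WT, 0.19, SE 0.11, edgeR adjusted p = 0.396). All 3 KO values were above the WT values, as for Prkcz, though the difference did not pass the test.

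RefSeq promoter windows of GRCm38.p6 (250 bases before to 50 after a start) matched 6 of the 8 genes, all but Prkce and Prkch. Stretches before the start, outside annotated exons, are shown for a gene lower in KO (Prkca, chr11:108343929-108344138, minus strand) and for the gene higher in KO (Prkcz, chr4:155361429-155361678, minus strand). Capitals mark the GC box GGGCGG and the CCAAT box CCAAT, searched on both strands.

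Prkca: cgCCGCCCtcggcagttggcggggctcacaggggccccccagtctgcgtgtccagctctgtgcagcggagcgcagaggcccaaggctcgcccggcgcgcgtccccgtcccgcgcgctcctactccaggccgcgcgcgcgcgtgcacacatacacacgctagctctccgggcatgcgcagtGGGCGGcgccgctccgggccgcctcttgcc

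Prkcz: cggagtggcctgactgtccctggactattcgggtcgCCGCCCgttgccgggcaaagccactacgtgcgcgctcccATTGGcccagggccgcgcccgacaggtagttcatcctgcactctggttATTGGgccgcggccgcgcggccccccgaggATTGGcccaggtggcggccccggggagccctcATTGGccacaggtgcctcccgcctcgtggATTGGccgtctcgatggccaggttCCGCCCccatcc

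Both stretches are rich in G and C, with 76.2% in Prkca and 70.8% in Prkcz. Their whole windows held 75.3% and 71%, beside a median of 52.7% over 32851 windows. The other Prkcz windows held 59.3% and 58.3%, and the first windows of the 6 genes ran from 59.7% to 75.3%. The printed part of Prkca holds 2 GC boxes and 0 CCAAT boxes, and that of Prkcz 2 GC boxes and 5 CCAAT boxes. Over whole windows a GC box was found in the first window of each of the 6 genes and in 35.7% of all windows. Counting every window, it was found in 1 of the 2 Prkcd windows and 2 of the 3 Prkcz windows. The CCAAT box was found in 1 of the 3 Prkcz windows, in no window of the other 5 genes and in 37.4% of all windows. TATAAA was found only in Prkcd among these genes (13.6% of all windows). For Prkcb and Prkcq the window met an annotated exon too early before the start, so no stretch is printed.

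Treg cells of both genotypes were dominated by the diacylglycerol-only isoforms. Prkch, which encodes PKC eta, had the highest level per length, with 95.9, 100.5 and 95.4 RPKM (CPM per kilobase of annotated exons) in WT and 88.0, 83.1 and 96.2 RPKM in KO. By reads it ranked 143rd of the 13602 tested genes. Prkcq (PKC theta) came next, with 59.3 to 61.8 RPKM in WT and 55.4 to 59.4 RPKM in KO. Prkca followed at 27.3 ± 0.497 RPKM in WT (mean ± SD, n = 3), Prkcd at 18.5 ± 0.909 and Prkcb at 15.3 ± 0.528. These first 5 levels did not overlap with their neighbours in either genotype. A lower tier held Prkci (4.19 ± 0.500 RPKM in WT), Prkce (3.98 ± 0.458) and Prkcz (3.31 ± 0.0704). Prkci and Prkce overlapped in WT, and in KO Prkci overlapped with Prkcz (4.39 ± 0.355 and 4.13 ± 0.328 RPKM), which stood above Prkce (3.42 ± 0.168). 

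The order of the middle and lower tiers depends on the length used. Per kilobase of the longest transcript, Prkcd (36.0 ± 1.77 RPKM in WT) and Prkcb (35.1 ± 1.21) overlapped in WT and both stood above Prkca (29.2 ± 0.531), whose longest transcript holds 8409 of its 8992 exon bases. Prkch and Prkcq kept the first and second places under both lengths.

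**Figure D1:**
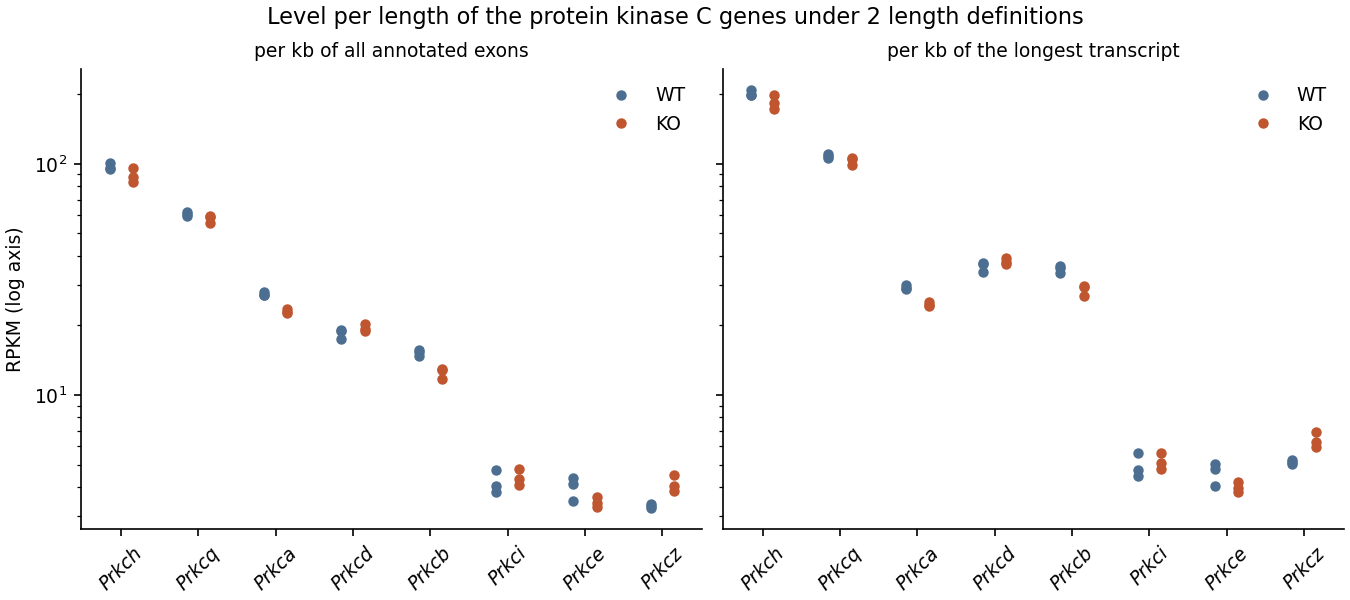
RPKM of the 8 PKC genes on a log axis, each point 1 library (3 WT in blue, 3 KO in orange), with reads divided by the length of all annotated exons (left) or of the longest transcript (right). Prkch and Prkcq lead in both panels, Prkca moves from the third place to the fifth, and Prkci, Prkce and Prkcz lie lowest, all under 7 RPKM.

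Summed over the 8 genes, the level per length was 228.4, 234.8 and 228.1 RPKM in WT and 214.2, 211.0 and 216.5 RPKM in KO, without overlap. Diacylglycerol-only isoforms made up 78.3% ± 0.696 of this sum in WT and 79.4% ± 0.836 in KO, with overlapping libraries. The classical share was 19.1%, 17.8% and 18.6% in WT and 16.7%, 17.3% and 15.8% in KO. The atypical share was 3.08%, 3.13% and 3.56% in WT and 4.02%, 4.06% and 3.87% in KO. Between genotypes the classical share was lower in KO and the atypical share higher, both without overlap, and the same held with the longest transcript as length (classical 15.2% ± 0.599 and 13.5% ± 0.733, atypical 2.37% ± 0.182 and 2.93% ± 0.0978). The 8 genes were chosen on this contrast, so these sums and shares restate their values and are no test. Both lengths use the same reads, and within the atypical pair the groups overlapped for Prkci. Values of single genes did not overlap in 25.7% of all tested genes.

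Both classical isoforms were lower in KO. Prkca (ENSMUSG00000050965, mm10 chromosome 11, 107933387 to 108343928, minus strand) had 4576, 5107 and 4808 reads in WT and 4099, 4175 and 4600 reads in KO. After TMM normalization this was 250.8, 243.9 and 242.4 CPM in WT and 206.0, 212.4 and 203.4 CPM in KO. The groups did not overlap, and the KO mean was 84.4% of the WT mean (log2 ratio -0.25, SE 0.04). Prkcb (ENSMUSG00000052889, chromosome 7, 122288751 to 122634402, plus strand) had 120.5, 112.5 and 117.6 CPM in WT and 97.7, 98.7 and 89.2 CPM in KO. Its groups did not overlap either, with a KO mean at 81.5% of WT (log2 ratio -0.30, SE 0.05).

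Prkca lies on the same chromosome as the targeted gene, 1.66 Mb from Smarcd2. Of 19 tested genes between them, 2 were called lower in KO and 0 higher, and their median log2 ratio was -0.06. This was 10.5% called, beside 6.45% of all tested genes, and with 19 genes nothing is read from it. Whether the altered locus or the chromosome around it bears on Prkca was not tested. Prkcb is abundant in B cells and in myeloid cells. Summed CPM of 8 B cell markers was 16.8 to 21.1 in WT and 14.0 to 19.4 in KO, overlapping, though 1 of them, Cd79b, was lower in KO (12.4 ± 1.21 to 7.69 ± 0.876 CPM) and another, Cd22, higher (2.98 ± 0.844 to 6.78 ± 1.52 CPM). The part of such cells in the level of Prkcb was not tested.

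The diacylglycerol-only isoforms overlapped between genotypes. Prkch (ENSMUSG00000021108, chromosome 12, 73584796 to 73778185, plus strand) had 722.3, 756.8 and 718.5 CPM in WT and 662.9, 625.4 and 724.1 CPM in KO. KO 3 alone reached the WT range, and the log2 ratio was -0.13 (SE 0.06). Prkcq (ENSMUSG00000026778, chromosome 2, 11172108 to 11301222, plus strand), the isoform of the T cell synapse, had 420.1, 437.5 and 429.8 CPM in WT and 417.4, 420.6 and 392.1 CPM in KO. KO 2 just exceeded WT 1, and the KO mean was 95.6% of the WT mean (log2 ratio -0.07, SE 0.05).

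Prkcd (ENSMUSG00000021948, chromosome 14, 30595354 to 30626210, minus strand), known for its role in B cell tolerance and apoptosis, had 105.7, 105.2 and 96.7 CPM in WT and 107.2, 111.8 and 104.8 CPM in KO (log2 ratio 0.07, SE 0.05). KO 2, the library with the most myeloid marker reads, was highest, and the log2 ratio without it was 0.04. The part of myeloid cells in this level was not tested. Prkce (ENSMUSG00000045038, chromosome 17, 86167785 to 86657919, plus strand) had 25.2, 31.6 and 29.9 CPM in WT and 26.1, 23.7 and 24.7 CPM in KO. Another annotated transcript on the same strand overlaps 6.50% of its exon bases. Its low WT 1 value lay within the KO range, and the log2 ratio of -0.22 (SE 0.09) became -0.31 without WT 1 and -0.15 without WT 2.

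The atypical pair was divided. Prkcz (ENSMUSG00000029053, chromosome 4, 155260129 to 155361361, minus strand) had 373, 439 and 423 reads in WT and 483, 557 and 579 reads in KO, or 20.4, 21 and 21.3 CPM against 24.3, 28.3 and 25.6 CPM. The groups did not overlap, and the KO mean was 125% of the WT mean (log2 ratio 0.32, SE 0.08). The log2 ratio was 0.25 without KO 2, its highest library. Prkci (ENSMUSG00000037643, chromosome 3, 30995747 to 31052959, plus strand) had 21, 22.4 and 26.4 CPM in WT and 26.5, 22.6 and 24.0 CPM in KO. Its groups overlapped almost fully (log2 ratio 0.07, SE 0.10). The gene table does not separate the full-length PKC zeta transcript from shorter ones that start at the other Prkcz promoters.

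**Figure D2:**
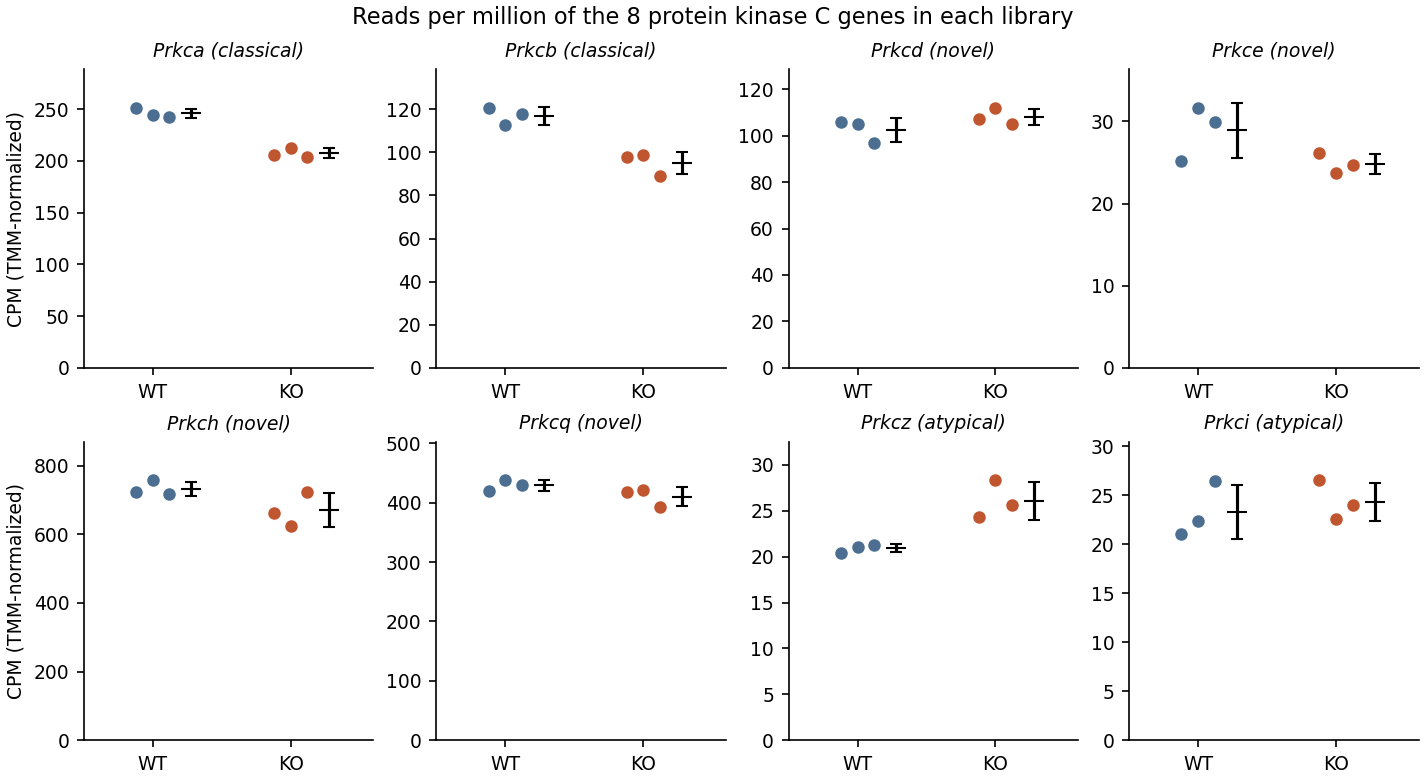
TMM-normalized CPM of each PKC gene on axes that start at 0, each point 1 library (WT 1 to 3 in blue, KO 1 to 3 in orange, left to right) and each bar the mean ± SD with n = 3. The KO points lie below all WT points for Prkca and Prkcb and above them for Prkcz, and the groups overlap for the other 5 genes.

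In the fit over all genes, edgeR's quasi-likelihood test (Benjamini-Hochberg adjusted p under 0.05) called 3 of the 8 genes, Prkca and Prkcb lower and Prkcz higher. The test called 6.45% of all tested genes, 3.25% higher and 3.20% lower, and the 3 KO and 3 WT values did not overlap in 25.7% of all genes and in these same 3 of the 8. Nothing is read from these counts, and they are no test of the 8 genes, because the genes were chosen on this contrast. The median log2 ratio was -0.10 over the 8 genes and 0.00 over all genes. When 1 library was left out the log2 ratio ran from -0.27 to -0.23 for Prkca, from -0.33 to -0.25 for Prkcb and from 0.25 to 0.37 for Prkcz. Of 13 alternatives, the call held in 11 for Prkca, 12 for Prkcb and 6 for Prkcz. That of Prkca was lost without WT 1 or WT 2, and that of Prkcb without WT 1. The call of Prkcz was lost in DESeq2, with the replicate number as a block, and without WT 1, WT 2, WT 3, KO 2 or KO 3.

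**Figure D3:**
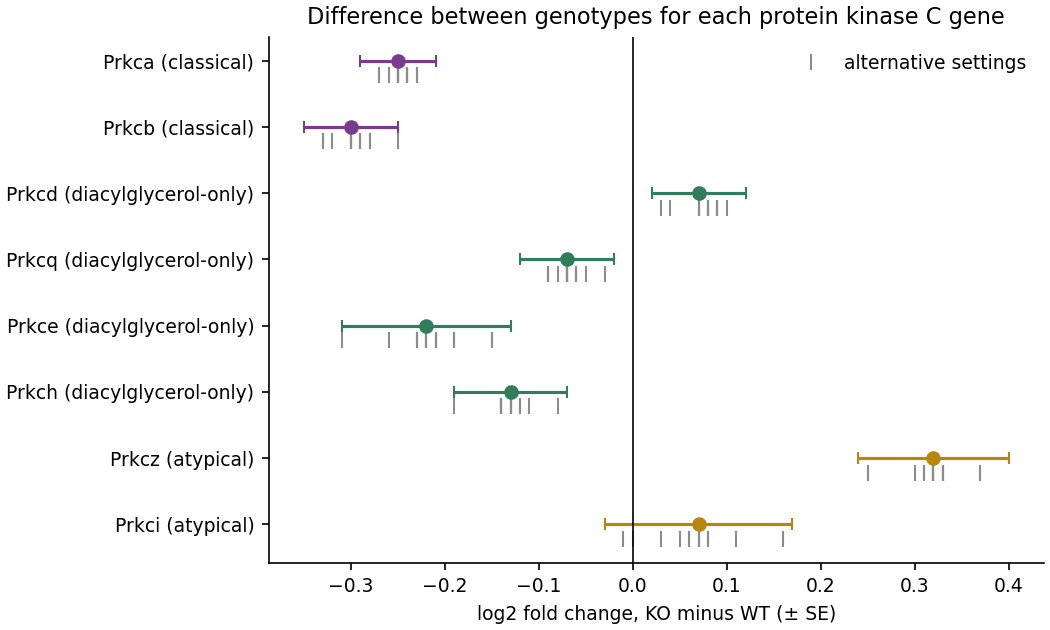
Log2 ratio (KO minus WT) of each PKC gene with its SE, coloured by class (classical purple, diacylglycerol-only green, atypical dark yellow), with grey ticks for 13 alternative settings, libraries left out included. The ticks of Prkca and Prkcb stay at or below -0.23 and those of Prkcz at or above 0.25, while those of Prkci run from -0.01 to 0.16.

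By the root mean square difference of centred log2 CPM over the 6 libraries, the genes nearest to Prkcb among 11154 compared were Mocs1 (0.0162), Exoc6 (0.0190) and Adprh (0.0277). Those nearest to Prkcz were Arl5c (0.0264), Galm (0.0341) and Arhgef11 (0.0359). Exoc6, a subunit of the exocyst, had 57.4, 54.5 and 56.2 CPM in WT and 46.6, 47.6 and 44.2 CPM in KO. Arhgef11, which encodes a guanine nucleotide exchange factor, had 59.2, 61.9 and 64.2 CPM in WT and 72.1, 79.3 and 76.7 CPM in KO. This measure follows the difference between genotypes as much as the spread among libraries.

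The enzymes and partners around PKC were examined through 9 lists with 101 tested genes. Of these, 4 were higher and 7 lower in KO (10.9%, beside 6.45% of all tested genes), and their median log2 ratio was 0.00. Without WT 1, 2 of these genes were called. The lists were chosen with earlier results of these data known, so nothing is read from this share. The same holds for the counts in each list below, beside 3.25% of all tested genes called higher and 3.20% lower. Among the supply of diacylglycerol, both phospholipase D genes rose, and no phospholipase C gene was called by edgeR with every library and the filter on low counts. Pld2, whose product makes phosphatidic acid that can be turned into diacylglycerol, rose from 3.56, 3.68 and 2.77 CPM in WT to 5.53, 6.51 and 6.19 CPM in KO (log2 ratio 0.86, SE 0.16, edgeR adjusted p = 0.0131, and 0.0544 without WT 1). Pld1 rose from 5, 14 and 9 reads to 21, 35 and 28 reads (log2 ratio 1.51, adjusted p = 0.0454). Its call was lost with any 1 library left out, in DESeq2 and with the Y-linked share added to the fit, a setting chosen after seeing the data (highest adjusted p = 0.174). Plcg1, the phospholipase C of the T cell receptor, had a log2 ratio of -0.10 (adjusted p = 0.312). With no filter Plcb2 and Plcb4 passed as higher in KO (log2 ratios 0.19 and 0.31, adjusted p = 0.0304 and 0.0316), and without KO 3 so did Plcg2 (1.40, adjusted p = 0.0493). In all, 2 of 12 genes of this list were higher and 0 lower, with a median log2 ratio of 0.23.

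Diacylglycerol kinases, which remove the messenger, were not called (0 of 8 in edgeR, DESeq2 and limma-voom, 1 at an unadjusted p under 0.05). EdgeR called 6.45% of all tested genes, so with 8 genes nothing is read from this. Dgka and Dgkz, the abundant kinases of T cells, had log2 ratios of -0.06 and 0.04, and Dgke, the gene with the smallest p, -0.15 (adjusted p = 0.160). Among other proteins that bind diacylglycerol, 1 of 5 was lower and 0 higher. Chn2, which encodes the Rac-inactivating protein beta-chimaerin, fell from 11, 9.89 and 10 CPM to 6.08, 5.19 and 5.26 CPM (log2 ratio -0.90, SE 0.12, adjusted p = 0.00262). Its call held in all 13 alternatives (highest adjusted p = 0.0218). Opposite-strand exons of 1 gene overlap 9.5% of the exon bases of Chn2 and those of another 1.12%, and 7.01% of the exon bases of Pld2 are overlapped in this way, so these counts may hold reads of other genes. Rasgrp1, which activates Ras in T cells, had a log2 ratio of -0.01 (adjusted p = 0.974).

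Upstream of PKC theta, 3 of 16 receptor-proximal genes were called lower and 0 higher, beside 3.20% and 3.25% of all tested genes. The median log2 ratio of the 16 was -0.03, and nothing is read from the count. Of the called genes, Zap70 and Cd247 are described. Zap70, the kinase recruited to the T cell receptor, fell from 290.6, 280.6 and 264.1 CPM to 241.8, 231.4 and 236.4 CPM (log2 ratio -0.24, SE 0.05, adjusted p = 0.0219). Cd247, the zeta chain of the receptor, fell from 308.9 ± 5.25 to 262.5 ± 8.76 CPM (log2 ratio -0.23, adjusted p = 0.0157). Exons of Pou2f1 on the opposite strand overlap 56.4% of the exon bases of Cd247, so its count is uncertain. Both calls were lost without WT 1 or WT 2, and that of Cd247 also without WT 3 (highest adjusted p = 0.104 for Zap70 and 0.0813 for Cd247). The costimulatory receptor gene Cd28, named after its values were seen, had a log2 ratio of 0.18 (edgeR adjusted p = 0.0620). It passed in DESeq2 (adjusted p = 0.0182), with library totals alone (0.0343) and with no filter (0.0366).

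Kinases and phosphatases that mature or switch off PKC were not called (0 of 13 in edgeR, DESeq2 and limma-voom, 1 at an unadjusted p under 0.05). With 6.45% of all tested genes called by edgeR, nothing is read from 0 of 13. Pdpk1, the kinase of the PKC activation loop, had a log2 ratio of -0.07 (adjusted p = 0.472). Without KO 2 the chaperone genes Hsp90aa1 and Hsp90ab1 passed as higher in KO (log2 ratios 0.65 and 0.34, adjusted p = 0.0178 and 0.0204), and with no filter on low counts so did Hsp90aa1 (0.40, adjusted p = 5.03e-05).

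Among PKC scaffolds and substrates 1 of 12 genes rose and 1 fell. Rack1, the receptor for activated C kinase and a ribosomal protein, fell from 2013.3 ± 55.1 to 1743.2 ± 41.2 CPM (log2 ratio -0.21, SE 0.05, adjusted p = 0.0309). Akap12, an anchoring protein that PKC phosphorylates, rose from 28.9 ± 0.607 to 34.5 ± 0.200 CPM (log2 ratio 0.25, SE 0.06, adjusted p = 0.0350). Both calls were lost with any 1 library left out (highest adjusted p = 0.118 and 0.119), and that of Akap12 also in DESeq2 (0.0946) and with no filter (0.0568). With no filter Pebp1 passed as lower in KO (log2 ratio -0.22, adjusted p = 0.0178).

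The polarity partners of atypical PKC held the largest changes of the 9 lists in either direction, 1 higher and 1 lower of 14 tested. Pard6g, which encodes PAR6 gamma, an adaptor that joins atypical PKC to CDC42, fell from 45.2, 42.6 and 37.7 CPM in WT to 21.7, 16.8 and 22.3 CPM in KO. The KO mean was 48.4% of the WT mean (log2 ratio -1.04, SE 0.11, adjusted p = 0.000749), and the call held in all 13 alternatives (highest adjusted p = 0.00792). Its paralogs Pard6a and Pard6b had log2 ratios of -0.06 and -0.03. Wwc1, which encodes KIBRA, a binding partner of PKC zeta, had 4, 6 and 6 reads in WT and 27, 18 and 28 reads in KO (log2 ratio 2.09, SE 0.36, adjusted p = 0.00870). At 0.269 ± 0.0442 and 1.17 ± 0.228 CPM it was scarce in both genotypes, and its call was lost without WT 1 or WT 2 (highest adjusted p = 0.0531). Pard3, the PAR3 scaffold gene, had 0 to 3 reads per library and was not tested.

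**Figure D4:**
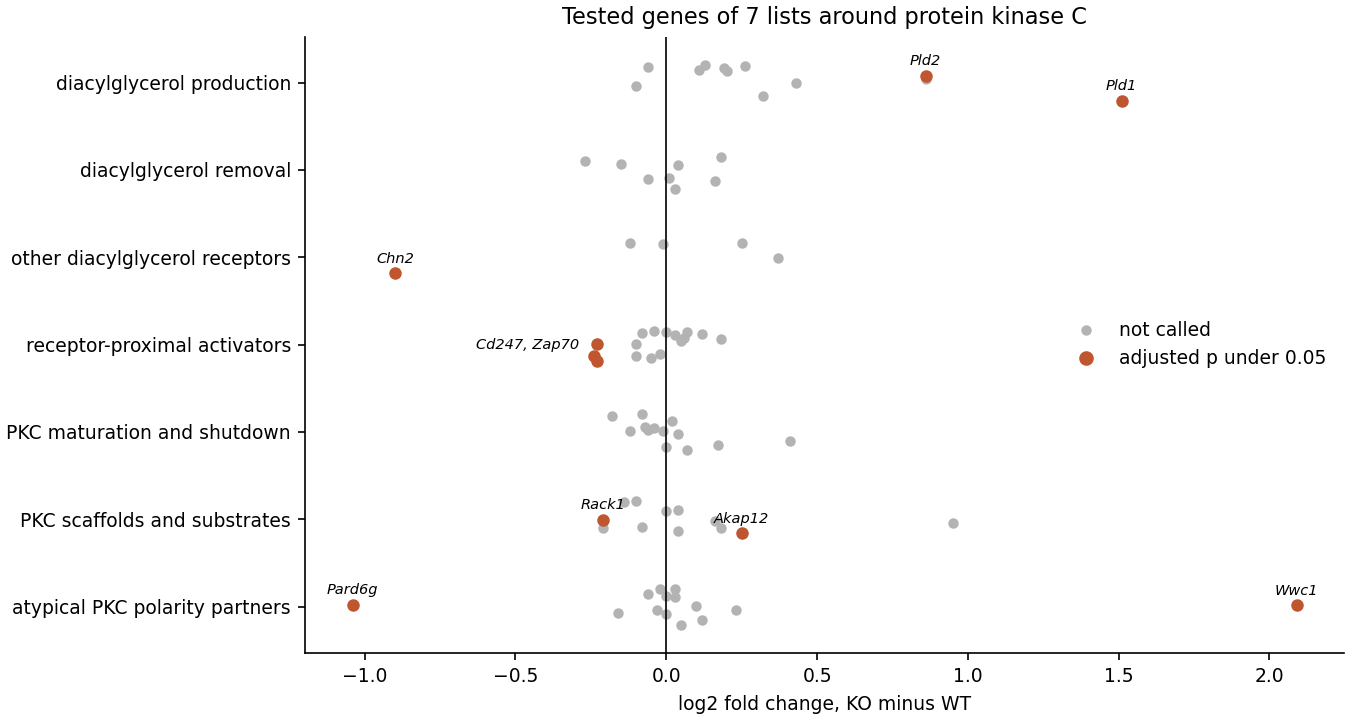
Log2 ratio (KO minus WT) of the tested genes of 7 of the 9 lists, each point 1 gene with random vertical scatter, in orange where edgeR's adjusted p was under 0.05. Pard6g (-1.04) and Chn2 (-0.90) lie farthest to the left, Wwc1 (2.09) and Pld1 (1.51) farthest to the right, and the lists for diacylglycerol removal and PKC maturation hold no orange point.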

How the data were processed

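Total RNA of GFP-positive Treg cells was sequenced in 6 libraries, 3 per genotype. The deposited table gives raw read counts per Ensembl gene as whole numbers. HISAT2 2.1.0, fastp 0.23.2, DESeq2 1.34.0, Picard and the mm10 build are named in the submitters' processing notes; the sources used here give no read counter, strand setting or handling of multiply mapped reads. Genes were kept by filterByExpr (minimum count 10, minimum total 15), normalized by TMM and tested over all 13602 genes with edgeR 4.0.16 (quasi-likelihood F test, R 4.3.3) at a Benjamini-Hochberg adjusted p under 0.05, without a block. SE is the log2 ratio divided by the square root of F. RPKM used GENCODE M21 exon lengths (GRCm38), and sequences came from RefSeq and GENCODE. Alternatives used RLE or library totals, no filter, DESeq2 1.42.0, limma-voom (limma 3.58.1), the replicate number as a block, and each library left out.

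The PKC genes and the gene lists were chosen with earlier results of these data known. Named genes are the PKC genes, Smarcd2, called genes of each pathway list (in a list without calls, that with the smallest p), and the 3 genes nearest to each of the 2 PKC genes with the largest change (mean of at least 2 CPM). Other genes were named after their values were seen, as reference points in their list. Markers covered Treg, B, myeloid, dendritic, NK and CD8 T cells, platelets and erythroid cells. Summed dendritic markers were 102.0 to 126.5 CPM in WT and 101.6 to 122.4 CPM in KO. Those of NK and CD8 T cells summed to 17.2 to 20.9 CPM in WT and 18.6 to 20.8 CPM in KO. Of 4 tested NK and CD8 T cell markers, 1, Klrb1c, was called lower in KO (2.58 ± 0.377 to 1.17 ± 0.334 CPM) and 0 higher. Their median log2 ratio was 0.30, and Eomes was higher in KO without overlap (3.12 ± 0.573 to 5.10 ± 0.695 CPM) but not called. The listed symbol Pals1 was not matched. Some genes and 2 of the lists are not reported here. The labels do not say whether each library is a separate mouse. The p-values measure only the spread between libraries, whose biological and technical parts were not separated. Libraries of the same genotype differed in Y-linked and Xist transcripts. No pair within a genotype agreed within sampling noise (chi-square per degree of freedom at least 5.03 over genes with at least 20 counts).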

Additional observations from a re-analysis of the deposited data

How the results depend on the processing

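With 1 library left out, the number of all genes called ran from 344 (without WT 1 or WT 2) to 848 (without KO 3), beside 877 with every library. That of the 8 PKC genes ran from 0 (without WT 1) to 3, and that of the 101 pathway genes from 2 (without WT 1) to 9, beside 11. No filter on low counts gave 1624 calls over all genes. The replicate number as a block gave 7 pathway calls, without Rack1 (adjusted p = 0.124) and Akap12 (0.0835) among others, and 2 PKC calls, without Prkcz. The numbers are not known to pair the libraries: deviations of same-numbered libraries correlated at -0.26, -0.06 and 0.22 over 11155 genes, and not every library correlated best with its own number. The order of PKC levels by length kept 2 of 8 places in WT and 3 of 8 in KO with the longest transcript as length, and all 8 in both with library totals. Of the PKC genes and the called genes of the pathway lists, none that was called changed direction under these alternatives. Directions of marker genes, Smarcd2 and the genes nearest to Prkcb and Prkcz were not compared in this way. Prkci, which was not called, went to -0.01 without WT 1. Precision is limited by 3 libraries per genotype, and for Wwc1 and Pld1 by low counts.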
